A study of Bos taurus with 10 samples.

Results

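The transcription factors ATF4 and ATF5 and the genes that work with them in the cellular stress response were examined in udder tissue away from an infection. The genes were named by a fixed list of 10 symbols: ATF4, ATF5, ATF3, DDIT3, DDIT4, TRIB3, ASNS, CEBPB, CEBPG and CEBPD. Every probe set, the group of short probes by which the array reads a transcript, was taken whose only gene symbol in the array annotation was on that list. This gave 12 probe sets for 9 genes, of 24016 probe sets and 9155 genes with a symbol of their own on the array. ASNS, the asparagine synthetase, had no such probe set and is not analysed here. The list was proposed with results of this same comparison in view, so the values of its genes, their intervals and the counts of them past a threshold are a description and support nothing.

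Mammary tissue came from 10 first-lactation German Holstein Frisian cows in mid-lactation, 5 per group and 1 array per cow, with oestrus synchronised and the glands emptied with 20 IU of oxytocin. Each teat of the udder belongs to a gland of its own. Neighboring samples were glands without bacteria, taken 24 h after another gland of the cow had been given 500 CFU of the mastitis strain Escherichia coli 1303 with 2 ml of saline. Control samples were glands of healthy cows without inoculation. Most samples joined tissue of a pair of glands per cow, the exceptions being neighboring 4 and controls 3 and 5. In the neighboring group, 1 gland of each pool had been given sterile saline, so neighboring 4 is the array of its group that holds no saline-treated tissue. The methods of the study set aside neighboring 5 as a biological outlier and control 3 as a technical outlier. Group means are accordingly given for the other 8 arrays, 4 per group, and the 2 arrays set aside are printed beside them.

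Values were log2 intensities from RMA (robust multi-array average). The arrays had medians of 6.25 to 6.28 and correlated at 0.971 to 0.992 over all probe sets. Precision is limited by how few arrays there were. Casein and other milk protein transcripts marked the tissue as secretory mammary tissue: the mean of 11 epithelial markers was 13.05 to 13.21 in neighboring and 13.02 to 13.07 in control arrays. In bulk tissue, fewer cells of a type and less RNA per cell cannot be told apart.

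In the integrated stress response, kinases that sense amino acid shortage, misfolded protein, haem shortage or viral RNA phosphorylate the translation factor eIF2alpha. Bulk protein synthesis then slows, while the messages of ATF4 and ATF5 are translated better because of short reading frames ahead of their coding sequence. ATF4 pairs with C/EBP proteins and switches on genes for amino acid synthesis, amino acid uptake and tRNA charging. In the mammary gland, C/EBP-beta is needed for the development of the secretory epithelium, and C/EBP-delta is known for its induction when milk secretion ends. An array reads messages only, so it does not show how much ATF4 or ATF5 protein was made.

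Of the transcription factors, ATF5 stood farthest from the controls, ATF4 and CEBPG by a smaller step, and TRIB3, a target and brake of ATF4, by 3.56-fold. ATF3, DDIT3 and DDIT4 overlapped between the groups. Of the 12 probe sets, 11 passed the filter on low signal, which dropped the dimmest 40% by mean over all arrays. On 8 arrays 6 of the 11 lay higher in neighboring glands at an adjusted p under 0.05 by limma, where 17.7% of all 14409 probe sets kept were called higher. None of the 11 was lower (0, also 0 at an unadjusted p under 0.05), where 12% of all were. The median difference over the 11 was 0.83 on the log2 scale, beside 0.03 over all probe sets kept. Because the genes were picked from this comparison, nothing is read from these counts.

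ATF4, the central factor of the pathway, was measured by Bt.19161.1.S1_at. Its log2 values were 12.31, 12.40, 12.56 and 12.69 in neighboring 1 to 4 and 11.73 in neighboring 5. In the healthy cows they were 11.56, 11.72, 11.22 and 11.84 in controls 1, 2, 4 and 5, and 11.59 in control 3. The lowest of neighboring 1 to 4 lay 0.47 above the highest control, while neighboring 5 lay within the control range. The means were 12.49 ± 0.17 and 11.59 ± 0.27 (SD, n = 4), a difference of 0.91 ± 0.14 (SE, 95% interval 0.59 to 1.22), or 1.87-fold. With all 10 arrays the difference was 0.75 ± 0.17 (SE), or 1.69-fold.

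ATF5, a related factor with a part in the mitochondrial stress response, was measured by Bt.1319.1.S1_at. It stood at 10.69, 11.04, 11.29 and 11.23 in neighboring 1 to 4 and at 9.54 in neighboring 5. Healthy tissue gave 8.38, 8.25, 8.11 and 8.21 in controls 1, 2, 4 and 5 and 8.64 in control 3. All 5 neighboring arrays lay above all 5 control arrays, the one probe set of the 11 kept for which this held. Over all probe sets kept, 3.8% separated the groups in that direction on 10 arrays and 18.4% on 8 arrays. The gap between the groups was 2.32 on 8 arrays. The means were 11.06 ± 0.27 and 8.24 ± 0.11 (SD, n = 4), 2.83 ± 0.14 apart (SE, 95% interval 2.53 to 3.13), or 7.10-fold, which ranked 8 among the 14409 differences. With 10 arrays the difference was 2.44 ± 0.28 (SE), or 5.43-fold. Neighboring 5 lay 1.30 above the mean of controls 1, 2, 4 and 5, 46.1% of the difference reached by the other neighboring arrays, and control 3 lay 0.41 above that mean.

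ATF3, an early stress factor that ATF4 can induce, showed the widest scatter of the healthy animals (Bt.18533.1.S1_at). The controls ran from 7.42 in control 4 to 9.67 in control 1, with 8.89, 8.62 and 8.59 in controls 2, 3 and 5. Neighboring 1 to 5 gave 8.03, 8.87, 9.0, 8.77 and 7.89, all within the range of the controls. The means were 8.67 ± 0.44 and 8.64 ± 0.93 (SD, n = 4), and the difference of 0.02 ± 0.40 (SE) had a 95% interval from -0.86 to 0.90. Its SD over the 4 control arrays was larger than that of 99.6% of all probe sets kept. Leaving out single arrays moved the difference between -0.38 and 0.37.

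**Figure D1:**
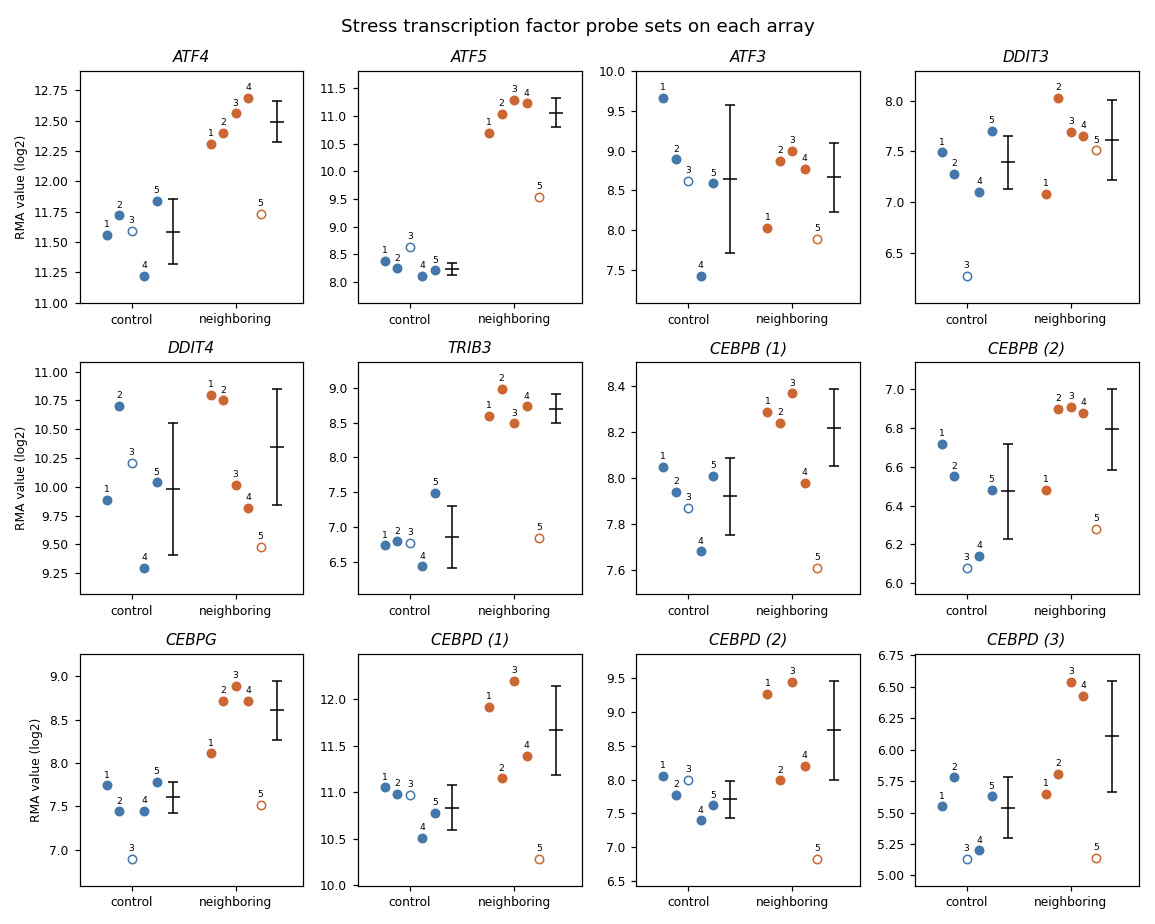
Log2 RMA value (y axis, a different range in each panel) of each of the 12 probe sets on each array, controls on the left and neighboring glands on the right of each panel. Numbers are cows, filled points enter the means, open points are control 3 and neighboring 5, and bars are the mean ± SD of the 4 filled points. ATF5 separates all 5 neighboring from all 5 control arrays, while ATF3, DDIT3 and DDIT4 overlap.

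DDIT3, which encodes CHOP, a C/EBP-like factor of prolonged stress, gave 7.08, 8.03, 7.69, 7.65 and 7.51 in neighboring 1 to 5 (Bt.9852.1.S1_at). Controls 1, 2, 4 and 5 gave 7.49, 7.28, 7.10 and 7.70, and control 3 was the lowest array at 6.27. Neighboring 1 lay below every control but control 3, so the groups overlapped. The means were 7.61 ± 0.39 and 7.39 ± 0.26 (SD, n = 4), 0.22 ± 0.20 apart (SE, 95% interval -0.21 to 0.65). With 10 arrays the difference was 0.42 ± 0.25 (SE), since control 3 lay 1.12 below the mean of the other controls (-1.12).

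TRIB3, a pseudokinase that ATF4 and CHOP induce and that restrains them in turn, was read by Bt.8238.1.A1_at. Neighboring 1 to 4 gave 8.60, 8.98, 8.49 and 8.73, whereas neighboring 5 gave 6.85. The controls gave 6.74, 6.80, 6.78, 6.44 and 7.49, the last in control 5. Neighboring 1 to 4 thus lay at least 1.00 above every control, and neighboring 5 lay among the controls. The means were 8.70 ± 0.21 and 6.87 ± 0.44 (SD, n = 4), 1.83 ± 0.20 apart (SE, 95% interval 1.38 to 2.28), and with 10 arrays 1.48 ± 0.35 (SE), or 2.79-fold.

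DDIT4, which encodes REDD1, a stress-induced brake on the growth kinase complex mTORC1, differed widely within both groups (Bt.2091.1.S1_at). Neighboring 1 and 2 were high at 10.80 and 10.75, and neighboring 3, 4 and 5 lower at 10.02, 9.82 and 9.48. Control 2, at 10.70, was level with the high neighboring arrays, the other controls were at 9.89, 10.21, 9.30 and 10.04. The difference was 0.36 ± 0.30 (SE, 95% interval -0.30 to 1.02) on 8 arrays and 0.14 ± 0.29 on 10. Its SD exceeded that of 97% of all probe sets kept within the neighboring group and of 98.2% within the controls.

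Among the C/EBP factors, CEBPG, the short family member that lacks an activation domain and forms dimers with ATF4, differed most clearly (Bt.10159.1.S1_at). Neighboring 1 to 4 gave 8.11, 8.72, 8.89 and 8.72, and neighboring 5 gave 7.52. Controls 1, 2, 4 and 5 gave 7.74, 7.44, 7.45 and 7.78, and control 3 was lowest at 6.89. Neighboring 1 to 4 lay above all controls by at least 0.33, and neighboring 5 was within their range. The means were 8.61 ± 0.34 and 7.60 ± 0.18 (SD, n = 4), a difference of 1.01 ± 0.17 (SE, 95% interval 0.64 to 1.38), or 2.01-fold, and of 0.93 ± 0.26 with 10 arrays.

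CEBPD, a factor of the acute-phase response, was measured by 3 probe sets. With Bt.6406.1.S2_at, neighboring 1 to 5 gave 11.92, 11.15, 12.20, 11.39 and 10.28, and controls 1 to 5 gave 11.05, 10.98, 10.97, 10.51 and 10.78. Neighboring 1 and 3 were high, neighboring 2 and 4 little above the controls with a gap of 0.10, and neighboring 5 below all controls. With Bt.6406.1.S3_at the neighboring values were 9.26, 7.99, 9.44, 8.20 and 6.83, and the control values 8.05, 7.77, 8.0, 7.40 and 7.62. The order of the neighboring cows was the same, neighboring 2 lay below control 1, and neighboring 5 was again lowest. The differences on 8 arrays were 0.83 ± 0.22 (SE, 1.78-fold) and 1.01 ± 0.31 (SE, 2.02-fold), and on 10 arrays 0.53 ± 0.29 and 0.58 ± 0.41. Bt.6406.2.A1_at had too low a signal to pass the filter. It gave 5.65, 5.81, 6.54, 6.43 and 5.14 in neighboring 1 to 5 and 5.55, 5.78, 5.13, 5.20 and 5.63 in controls 1 to 5, so here neighboring 3 and 4 were high.

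CEBPB, the family member of mammary epithelial development, was measured by 2 probe sets with small differences. Bt.22785.1.S1_at gave 8.29, 8.24, 8.37, 7.98 and 7.61 in neighboring 1 to 5 and 8.05, 7.94, 7.87, 7.68 and 8.01 in controls 1 to 5. Bt.1747.1.S1_at gave 6.48, 6.90, 6.91, 6.88 and 6.28 against 6.72, 6.55, 6.08, 6.14 and 6.48. The groups overlapped with both, and neighboring 5 was below all controls with the first. The differences were 0.30 ± 0.12 (SE, 95% interval 0.03 to 0.56) and 0.32 ± 0.14 (SE, 95% interval 0.00 to 0.64) on 8 arrays, and 0.19 ± 0.14 and 0.30 ± 0.16 on 10.

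**Figure D2:**
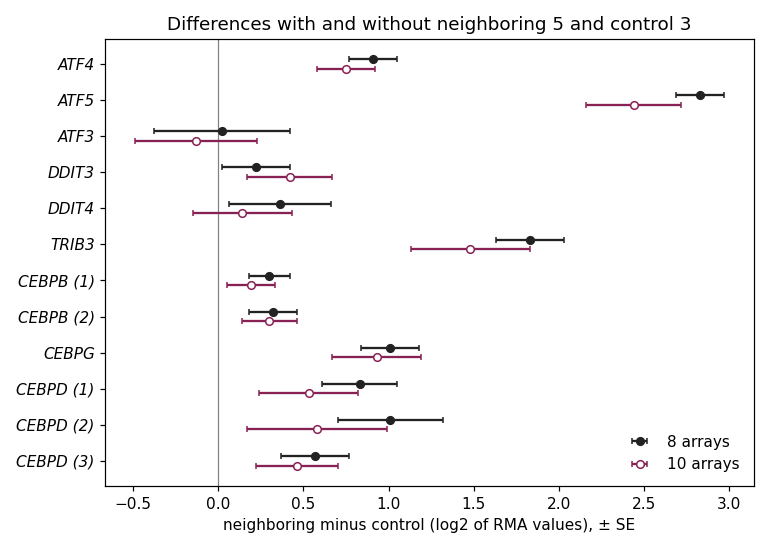
Difference between neighboring and control means (x axis, log2 of RMA values) for each probe set, with limma's SE as bars, on 8 arrays (filled) and on all 10 arrays (open). ATF5 and TRIB3 moved from 2.83 and 1.83 to 2.44 and 1.48 when the 2 arrays set aside were entered, and the intervals of ± 1 SE of ATF3 reached across 0 in both.

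On all 10 arrays 4 of the 11 probe sets lay higher at an adjusted p under 0.05, where 7.16% of all probe sets did. The rule of the study's methods, a 2-fold difference together with an adjusted p below 0.01, was met by ATF5, TRIB3 and CEBPG on 8 arrays (3 of 11, where 1.71% of all probe sets were called higher) and by 1 probe set on 10 arrays, where 0.0555% of all were. The members just inside the 2-fold limit on 8 arrays were CEBPG at 2.01-fold and CEBPD at 2.02-fold with Bt.6406.1.S3_at, of which the latter missed the p limit, and the member just outside was ATF4 at 1.87-fold.

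The genes around these factors were described from gene lists, each gene by its brightest probe set kept. Like the members, the lists were chosen with earlier results of these data known. Their counts and medians are therefore a description and support nothing. Rises and falls are here those with an adjusted p below 0.05 by limma on 8 arrays, where 20.2% of all 7055 genes measured rose and 11.5% fell. On all 10 arrays 8.26% rose and 5.02% fell. The median difference of all genes was 0.06.

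Upstream of ATF4, subunits of the initiation factors rose and the 2 eIF2alpha kinases tested did not pass. Of 10 genes tested, 5 rose, 0 fell (1 at an unadjusted p under 0.05) and the median difference was 0.29. EIF2B1 rose by 0.64 ± 0.10 and EIF2B2 by 0.44 ± 0.09 (SE), both subunits of the exchange factor eIF2B, which reloads eIF2 with GTP. EIF2S1, eIF2alpha itself, rose by 0.54 ± 0.11, from 8.16 ± 0.10 to 8.71 ± 0.19 (SD, n = 4). EIF2B4 rose by 0.36 ± 0.11 and EIF2B3 by 0.35 ± 0.12, the latter at an adjusted p of 0.0499. The kinase EIF2AK1 differed by 0.22 ± 0.16 and EIF2AK3, also called PERK, by -0.30 ± 0.18, and the phosphatase subunit PPP1R15A by 0.14 ± 0.11. The amino acid sensing kinase EIF2AK4 had no probe set of its own, and EIF2AK2, which senses viral RNA, had too low a signal. On all 10 arrays none of the 10 genes passed (0 of 10), with 4 higher and 1 lower at an unadjusted p under 0.05.

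Of the known targets of ATF4, 59 genes were listed besides the members. Of these 11 had no probe set and 3 had too low a signal. Among the 45 tested, 26 rose (57.8%) and 2 fell, with a median difference of 0.64. On all 10 arrays 18 rose and 1 fell, and the median was 0.52.

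Genes of amino acid and one-carbon synthesis, listed together with PCK2, held the largest target changes, with 8 of 13 higher and 1 lower. MTHFD2, a mitochondrial folate enzyme, rose by 2.61 ± 0.16 (SE), or 6.10-fold. Its values were 9.18, 9.06, 9.19 and 9.15 in neighboring 1 to 4 and ran from 6.05 to 6.99 in the 5 controls, while neighboring 5 stood at 7.01, just above the controls. PCK2, the mitochondrial phosphoenolpyruvate carboxykinase, rose by 2.57 ± 0.18. PSPH, the last enzyme of serine synthesis, rose by 2.21 ± 0.49 with a wide spread, from 9.05 to 10.29 in neighboring 1 to 4 and from 6.50 to 9.01 in controls 1, 2, 4 and 5. PHGDH, the first enzyme of that route, rose by 1.47 ± 0.12 and CBS, the entry enzyme of transsulfuration, by 1.36 ± 0.12. ALDH18A1, the first enzyme of proline synthesis, fell by 1.20 ± 0.23. SHMT2, PYCR1, GPT2 and GOT1 differed by 0.09, -0.10, -0.09 and 0.16 and did not pass. On 10 arrays 7 rose and 1 fell.

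Amino acid transporters were split, with 2 of 7 higher and 1 lower and a median difference of 0.13. SLC3A2, the heavy chain shared by several exchangers, rose by 1.88 ± 0.10 (SE), or 3.69-fold, and SLC1A4, a carrier of alanine, serine and cysteine, by 0.88 ± 0.13. SLC7A5, the light chain that carries leucine together with SLC3A2, differed by -0.04 ± 0.25. SLC43A1, another carrier of large neutral amino acids, fell by 0.31 ± 0.09. On 10 arrays 1 gene, SLC3A2, rose.

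Of 13 genes for cytosolic tRNA synthetases and the tRNA exporter XPOT, 10 rose and 0 fell (1 at an unadjusted p under 0.05), with a median difference of 0.89. The synthetase for glycine, GARS1, rose by 2.05 ± 0.15 (SE), or 4.15-fold, that for serine, SARS1, by 1.64 ± 0.11, that for tryptophan, WARS1, by 1.54 ± 0.17 and that for alanine, AARS1, by 1.06 ± 0.12. CARS1, EPRS1 and LARS1, for cysteine, glutamate with proline, and leucine, differed by 0.29, -0.28 and 0.08 and did not pass. On 10 arrays 5 of the 13 rose.

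Stress effectors rose in 6 of 12 cases and fell in 0 (0 also at an unadjusted p under 0.05), with a median difference of 0.40. SESN2, a leucine sensor that restrains mTORC1, rose by 1.54 ± 0.19 (SE), or 2.90-fold. MAP1LC3B, the LC3 protein of autophagosomes, rose by 1.05 ± 0.12, the stress-induced chromatin protein NUPR1 by 1.03 ± 0.21, and EIF4EBP1, a translation repressor, by 0.90 ± 0.15. CHAC1, a glutathione-degrading enzyme, differed by -0.33 ± 0.29 and VEGFA by -0.21 ± 0.12. On 10 arrays 5 rose.

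**Figure D3:**
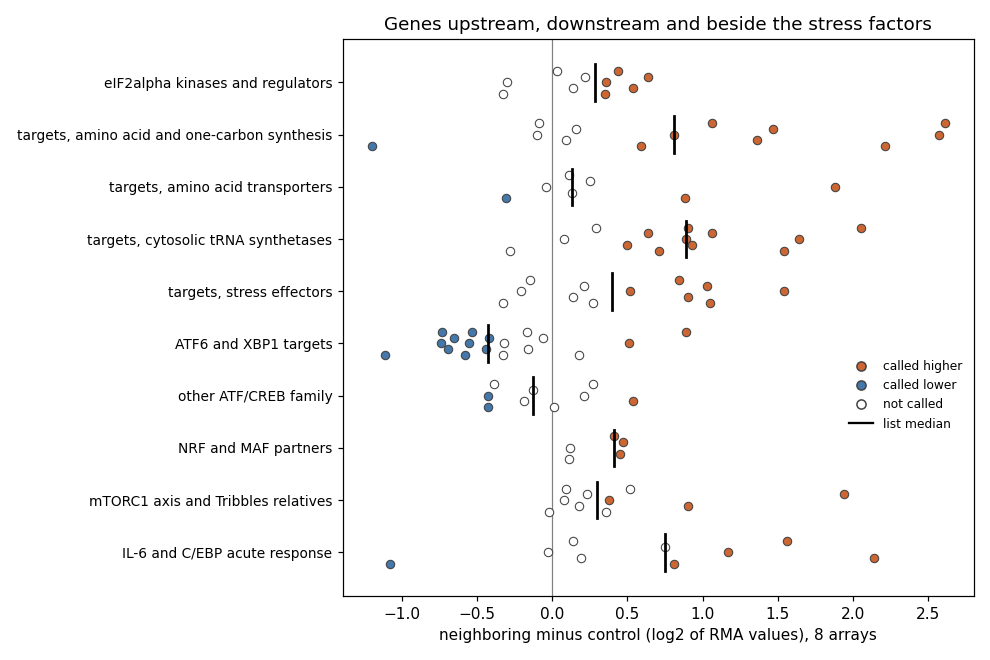
Difference between neighboring and control means on 8 arrays (x axis, log2 of RMA values) for each gene tested, 1 point per gene and 1 row per list. Filled points passed an adjusted p under 0.05 by limma (orange higher, blue lower), open points did not, and the vertical mark is the median of the list, 0.89 for the tRNA synthetases and -0.43 for the ATF6 and XBP1 targets.

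The other arms of the protein stress response, in which the factors ATF6 and XBP1 induce chaperones of the endoplasmic reticulum, gave the opposite sign on 8 arrays. Of 18 genes tested, 10 fell and 2 rose, with a median difference of -0.43. HSP90B1, also called GRP94, fell by 1.11 ± 0.32 (SE), the disulfide isomerase PDIA4 by 0.74 ± 0.13, the co-chaperone DNAJB9 by 0.73 ± 0.15 and the secreted factor MANF by 0.69 ± 0.15. The groups overlapped for HSP90B1, which reached 10.88 in neighboring 1 and was as low as 10.87 in control 1. Its control spread was wide, with control 4 highest at 12.47. SEL1L, an adaptor of protein degradation at the endoplasmic reticulum, rose by 0.89 ± 0.11 and DNAJC3, an inhibitor of the kinase PERK, by 0.51 ± 0.13. HSPA5, the main chaperone BiP, differed by -0.16 ± 0.15. On all 10 arrays 0 of the 18 fell and 1 rose, with 9 lower and 3 higher at an unadjusted p under 0.05. HSP90B1 was 11.30 and PDIA4 9.08 in neighboring 5, within the range of the controls for the first and just above it for the second. The count of falls was 6 instead of 10 without neighboring 3 or without control 5.

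Other members of the ATF/CREB family gave 1 rise and 2 falls among 9 genes. ATF2, a factor of stress kinases, rose by 0.54 ± 0.10 (SE), while the liver-type factor CREB3L3 and the lymphocyte factor BATF each fell by 0.43. On 10 arrays 1 of the 9 rose and 0 fell, with 2 lower at an unadjusted p under 0.05. Of the other C/EBP genes, CEBPA had too low a signal to be tested. Of 5 NRF and MAF genes, partners of the basic leucine zipper factors, 3 rose by 0.47 ± 0.13 (MAFF), 0.45 ± 0.10 (NFE2L1) and 0.41 ± 0.11 (KEAP1), and 0 fell (0 at an unadjusted p under 0.05). NFE2L2, the factor of the oxidative stress response that KEAP1 holds back, differed by 0.12 ± 0.13. On 10 arrays 0 of these 5 passed in either direction, with 1 higher at an unadjusted p under 0.05.

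Around mTORC1, the complex on which DDIT4 acts, 3 of 10 genes rose (30%, beside 20.2% of all genes) and 0 fell (0 at an unadjusted p under 0.05). The 3 include EIF4EBP1, already counted among the stress effectors. SESN1, a relative of SESN2, rose by 1.94 ± 0.27 (SE), or 3.84-fold, from 7.44 ± 0.29 to 9.39 ± 0.63 (SD, n = 4), and RHEB, the activator of mTORC1, by 0.38 ± 0.11. TRIB1, a relative of TRIB3, differed by 0.52 ± 0.20 with an adjusted p of 0.0791 by limma, and TRIB2 by -0.02 ± 0.12. On 10 arrays 2 of the 10 rose.

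Genes of IL-6 signalling and the acute-phase response, in which the C/EBP factors act, rose in 4 of 9 cases and fell in 1. LBP, the lipopolysaccharide-binding protein, rose by 2.14 ± 0.44 (SE), the serum amyloid gene SAA3 by 1.56 ± 0.40, STAT3 by 1.17 ± 0.24 and the oncostatin M receptor OSMR by 0.81 ± 0.17. CD14, the lipopolysaccharide co-receptor, fell by 1.08 ± 0.27. STAT3, a factor known to induce CEBPD, stood at 11.28 and 10.85 in neighboring 1 and 3, at 9.97 and 10.25 in neighboring 2 and 4 and at 9.24 in neighboring 5. These were the same high and low cows as for the 2 brighter CEBPD probe sets. OSMR, too, was highest in neighboring 1 and 3, at 9.84 and 9.44, though neighboring 4 was close at 9.31. LBP was highest in the same cows, at 12.04 and 10.91. Other genes of the list did not share this order. SAA3 and JUNB, the latter not called, were lowest in neighboring 1 among neighboring 1 to 4, at 8.83 and 8.84. The likeness was seen after the fact, and a link between these genes was not tested. On 10 arrays 1 gene rose, SAA3, and CD14 fell.

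Neighboring 5 lay near the controls for most of these genes. Counted from the mean of controls 1, 2, 4 and 5, it reached 16.4% of the difference of the other neighboring arrays for ATF4, 46.1% for ATF5, -0.8% for TRIB3 and -8.5% for CEBPG. For the 26 targets that rose it reached a median of 19.4%, from -29.5% to 75.1%. It lay on the side of the other neighboring arrays for 20 of the 26, above all 4 control arrays of the fit for 12 and above all 5 controls for 6. It was closer to the control mean than to the neighboring mean for 24. Among all 2548 probe sets called higher on 8 arrays, the median was 15.2% and 70.8% lay on the neighboring side. For the 10 ATF6 and XBP1 targets that fell, neighboring 5 reached a median of -25.7%, from -39.1% to 25.7%. It lay on the side of the other neighboring arrays for 3 of the 10 and below all 4 control arrays of the fit for 0.

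**Figure D4:**
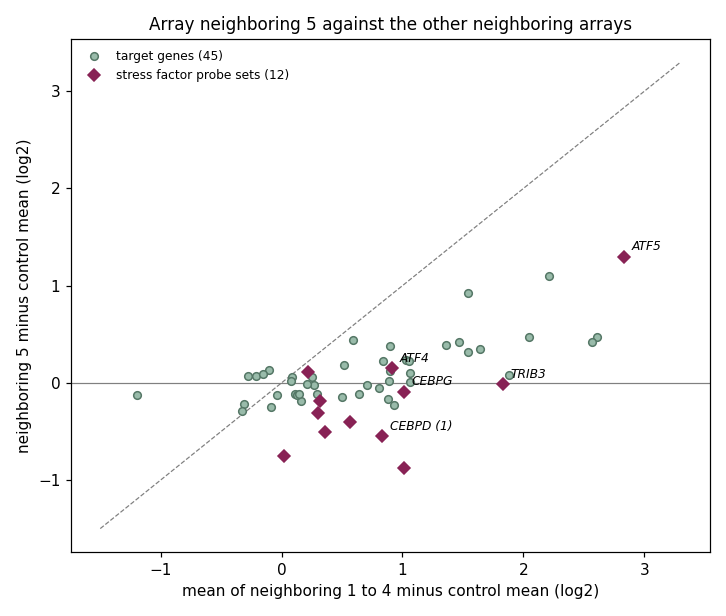
Deviation of neighboring 5 from the mean of controls 1, 2, 4 and 5 (y axis, log2) against the difference of neighboring 1 to 4 from the same mean (x axis, log2), for the 12 probe sets (diamonds) and the 45 targets tested (circles). The dashed line marks equal values, and the genes with large differences lie below it, with ATF5 at 1.30 and TRIB3 at -0.01 on the y axis.

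The genes whose values over the 10 arrays were most like those of ATF5 by Pearson's r, among 7046 genes, were PSMF1, a proteasome inhibitor (0.981), MPZL3 (0.979), CCZ1 (0.977), CHMP1A (0.975), SDS, the serine dehydratase (0.974), HAUS8 (0.972), FBXO22 (0.968) and SCYL2 (0.968). For ATF4 they were the autophagy protein ATG101 (0.990), the cell cycle inhibitor CDKN1A (0.985), RNF121 (0.979), RBM17 (0.978), CDC123 (0.977), RALY (0.975), the proteasome subunit PSMD6 (0.969) and NFKBIL1 (0.965). Each r holds the difference between the groups and the shared normalization of the arrays, so it carries no p. No gene stood in both lists of 8.

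Markers of other cells were compared on 8 arrays by an exact two-sided permutation test over the 70 splits, adjusted over the 9 quantities compared. This design could hardly pass after adjustment, since its smallest p is 0.0286, so the values of all 10 arrays (252 splits) are given as well. The mean of 10 neutrophil and monocyte genes was 7.43 to 7.75 in neighboring and 7.23 to 7.34 in control arrays (0.33 higher, exact p = 0.0286, adjusted 0.128), and on 10 arrays it was 0.43 higher (exact p = 0.00794, adjusted 0.0357), with neighboring 5 at 7.75 and control 3 at 6.92. Of the 10, S100A8 and S100A12 rose, by 2.42 and 1.98, and CD14 fell, while the defining genes ITGAM, MPO and ELANE had too low a signal to be tested. The control means of S100A8 and S100A12, 5.59 and 5.54, lay under the filter value of 5.71, so they passed through their neighboring values. The other genes in this mean differed by -1.08 (CD14) to 0.18 (ITGB2). The rise of the mean and its p therefore rest on S100A8 and S100A12 and do not speak for the list. The mean of 6 lymphocyte genes was 6.15 to 6.76 and 6.73 to 7.05 (exact p = 0.0571, adjusted 0.128; -0.37 on 10 arrays, exact p = 0.111), with 3 of the 6 lower and CD79A, MS4A1 and NCR1 under the filter. The mean of 6 fibroblast and adipocyte genes was 8.81 to 9.58 and 9.72 to 10.14 (exact p = 0.0286, adjusted 0.128), and on 10 arrays it differed by -0.66 (exact p = 0.00794, adjusted 0.0357), with 3 of the 6 lower and 1 higher on 8 arrays, and ADIPOQ and LEP under the filter. The epithelial mean differed by 0.06 (exact p = 0.0857, adjusted 0.154), with EPCAM higher and XDH lower, and the mean of 3 endothelial genes by -0.03 (exact p = 0.771), with VWF under the filter. Most epithelial genes lay near the top of the scale, such as CSN2 at 14.74 where the highest value was 14.9. The epithelial mean could therefore hardly move. Lower on the scale, EPCAM differed by 0.72 ± 0.09 and KRT18, which was not called, by 0.77 ± 0.34 (SE). The part of these cells in the differences above was not tested.

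The 18 probe sets of hybridization controls, RNAs added in equal amounts to every array, averaged 10.20 to 10.43 in neighboring and 10.42 to 10.84 in control arrays (-0.37, exact two-sided permutation p = 0.0571, adjusted 0.128; -0.29 on 10 arrays, exact p = 0.0397, adjusted 0.119). With this mean as a covariate, the differences were 1.27 ± 0.21 for ATF4, 2.39 ± 0.29 for TRIB3, 1.29 ± 0.28 for CEBPG and 1.35 ± 0.48 for ATF3 (SE). They were 0.71 ± 0.29 for DDIT3, 0.70 ± 0.52 for DDIT4 and 0.71 ± 0.21 for CEBPB with Bt.1747.1.S1_at, while ATF5 stood at 3.02 ± 0.23. CEBPB with Bt.22785.1.S1_at stood at 0.41 ± 0.21. CEBPD became smaller, at 0.74 ± 0.39 with Bt.6406.1.S2_at and 0.73 ± 0.54 with Bt.6406.1.S3_at. The means of the hybridization controls barely overlapped between the groups. This fit can therefore hardly tell hybridization from group, and nothing is read from its shifts. In that fit 3 member probe sets and 12 targets passed at an adjusted p under 0.05 by limma, instead of 6 and 26.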

How the data were processed

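Per the labels and the methods of the study, TRIzol RNA was amplified with biotin labels (MessageAmp II) for Affymetrix GeneChip Bovine Genome Arrays, with all 10 arrays run in 1 set. The deposited values are log2 RMA intensities, 1 per probe set, where RMA subtracts background, gives all arrays the same distribution and summarises the probes. A shift shared by most transcripts is removed by this step, and differences are compressed at low and high signal. The RMA version is not given in the sources used here. Groups and replicate numbers were taken from the sample titles. The source field of the control samples repeats that of the neighboring samples, while their titles and descriptions name healthy animals.

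Array controls (112 probe sets) were left out. Of 24016 probe sets 13318 carried 1 gene symbol, of which 13283 were matched to current symbols of the reference gene table. Instead of the authors' present calls, which were not used here, a filter on the mean over 10 arrays removed the lowest 40% (under 5.71) and kept 14409 probe sets, of which 9149 had 1 symbol and stood for 7055 genes. Limma 3.58.1 (R 4.3.3; lmFit, eBayes, Benjamini-Hochberg over all probe sets kept) was fitted to 8 arrays, and every adjusted p comes from it unless called exact. SE and intervals are limma's, and SD is over 4 arrays. Cows were separate animals, so the spread holds animal and technical variation together.

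Members and gene lists were chosen with earlier results of these data known. Named were all members, up to 4 genes per list with the largest called difference, and the 8 genes most like ATF5 and ATF4. Genes named because they did not pass, and further called genes (EIF2B3, CBS and others), were chosen after their values were seen. On simulated arrays with 200 changed of 14409 probe sets, 86% of 2-fold and 99% of 4-fold changes were called, and 10 unchanged probe sets. The simulated noise was independent between probe sets, and far fewer probe sets were changed than were called in the data. These rates therefore do not carry over to the data. Alternatives covered the arrays entered, array weights, filter, scaling, variance model, a hybridization control covariate, the replicate number as a block, averaging the probe sets of a gene, and each array left out in turn. No sequences or coordinates are given.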

Additional observations from a re-analysis of the deposited data

Results flagged for a closer look

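In groups of 5 arrays, 126 were checked for an array that stood far from the other 4, and 15 were found. Chance alone would mark about 1 in 20 of independent groups picked without regard to their values. Many of the genes checked were named for large differences in a fit without the arrays set aside, and the groups share the same arrays. The rate of 1 in 20 is therefore no measure for the 15, and nothing is read from their number. Of the 24 groups of member probe sets 1 was marked: TRIB3 in neighboring 5, at 6.85 where the other neighboring arrays lay between 8.49 and 8.98.

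Neighboring 5 was also the low array of its group in the targets MTHFD2 at 7.01 (the others 9.06 to 9.19), SLC3A2 at 9.19 (10.82 to 11.20), SLC1A4 at 8.75 (9.63 to 9.94), GARS1 at 10.14 (11.53 to 12.07) and SARS1 at 10.13 (11.24 to 11.55). The same held for SEL1L at 10.22, and, among genes most like ATF5 or ATF4, for MPZL3 at 8.67, FBXO22 at 7.33, SCYL2 at 9.91 and RNF121 at 7.88. This is the array that the methods of the study set aside.

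Control 3, the other array set aside, was high among the controls for PHGDH at 8.77 (the others 8.18 to 8.28) and for SLC3A2 at 9.56 (9.05 to 9.19). Control 2 was low for LBP at 7.61 (9.10 to 9.25), and control 4 for RBM17 at 8.48 (8.65 to 8.72).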

How the results depend on the processing

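Signs were followed for the members, the up to 4 genes per list and the genes most like ATF5 and ATF4, not for all probe sets. No called difference among these changed sign under the alternatives run, while that of ATF3, which was not called, ranged from -0.38 to 1.35. The number of calls depended on the arrays entered. On 8 arrays 2548 probe sets were higher, 1735 lower and 398 met the strict rule, with 6 member probe sets and 26 targets higher, 2 targets lower, and 2 ATF6 and XBP1 targets higher and 10 lower. On all 10 arrays these were 1032, 774 and 15 probe sets, 1 target lower, and 1 and 0 ATF6 and XBP1 targets. With neighboring 5 added to the 8 arrays they were 743, 447 and 4, with 3 members, 0 targets lower, and 1 and 0 ATF6 and XBP1 targets. With the hybridization control covariate they were 152, 99 and 27, with 3 members, 12 targets higher and 0 lower, and 0 and 1 ATF6 and XBP1 targets. Control 3 added, array weights, other filters, scalings and variance models, or the mean over probe sets kept every count within 1.5 times. The cause of these shifts was not tested.

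Deviations of same-numbered arrays from their group means correlated at -0.19, 0.07, -0.17, 0.02 and 0.17, and the numbers belong to different cows, so they do not pair the samples. With the number as a replicate block, 850, 631 and 119 probe sets were called on 8 arrays, with 1 target lower and 1 and 1 ATF6 and XBP1 targets. The same block on 10 arrays gave 714, 447 and 0, with 1 member and 17 targets higher, 1 target lower, and 1 and 1 ATF6 and XBP1 targets.

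Without single arrays, 1795 to 2544 probe sets were higher, 1201 to 1706 lower and 326 to 458 met the strict rule. Member probe sets higher ranged from 5 to 7 and lower from 0 to 0, targets higher from 26 to 27 and lower from 1 to 3. ATF6 and XBP1 targets lower ranged from 6, without neighboring 3 or control 5, to 11, and higher from 2 to 2. Of 231 member differences under the alternatives 12 moved by more than the spread within groups. Of those of other named genes, 156 lost their call and 915 did not.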
